A study of Mus musculus with 8 samples.

Results

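Microglia, the resident macrophages of the brain, were followed through 9 genes that mark them in brain tissue: the receptors Cx3cr1, Csf1r and P2ry12, the complement chains C1qa, C1qb and C1qc, the signalling adaptor Tyrobp, and the lysosomal proteins Ctss and Laptm5. The genes were named by symbol, and each was represented by the transcript row with its highest summed count. All 9 were found, each as 1 row, among 21643 gene symbols of the count table. The material was polyribosome-associated mRNA, that is, messages that sediment with several ribosomes, from C57BL/6 mice aged 7 to 9 weeks. There were 8 libraries, 1 for each combination of hippocampus or frontal cortex, contextual fear conditioning or exposure to the context alone (control), and 6 h or 1 h after the session. The labels name 4 conditioned and 4 control mice and do not say whether a library came from 1 animal, so the p-values reflect how far these libraries differ among themselves, which may be technical in part. The dissection protocol names only the prefrontal cortex, while 4 libraries are labelled hippocampus.

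Microglia survey the tissue with motile processes. CX3CR1 receives fractalkine (Cx3cl1) from neurons, CSF1R receives the survival factors CSF1 and IL-34, and P2RY12 senses nucleotides and steers process movement. The 3 C1q chains assemble into the molecule that starts the classical complement cascade, which in the brain is known for tagging synapses, and TYROBP carries the ITAM signal of receptors such as TREM2. In tissue libraries such as these, fewer microglia and less RNA per microglial cell cannot be told apart, and neither can be told apart from a change in ribosome loading.

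The libraries held 2370973 to 5296986 counts. The hippocampus control 6 h library was the smallest and stood apart: the kinesin gene Kif5c took 8.01% of its counts, against 0.0382% to 0.545% in the others, and its TMM scaling factor was 0.733. The libraries labelled hippocampus conditioned 1 h and cortex conditioned 1 h agreed to within about sampling noise. Over 11338 genes the mean chi-square between them was 1.06, close to the 1 that counting error gives, and 0 genes differed at an adjusted p of 0.05, whereas the next closest pair of libraries had a mean of 4.87 and 1423 genes. Summed over all genes, the small excess was beyond counting error (chi-square p = 1.79e-06). They were counted as 1 sample. Their tissue labels were checked with Prox1, a transcription factor of dentate granule cells, chosen after its values were seen. Prox1 stood at 66.6 and 69.1 CPM (read counts scaled by library size and TMM factor) in the pair, against 128 to 266 CPM in the other hippocampus libraries and 17.3 to 20.7 CPM in the other cortex libraries. Of 11 tissue genes chosen in this way, Prox1 included, the pair lay between the ranges of the tissues on 5, within the cortex range on 3, within the hippocampus range on 2 and outside both on 1. For Wfs1 (hippocampus 55.8 to 129 CPM, cortex 103 to 175 CPM) and Rorb (9.74 to 55.8 and 31.4 to 63.8 CPM) the ranges overlapped, so nothing could lie between them. Tyro3, chosen for hippocampus, was higher in cortex (39.9 to 90.5 CPM) than in hippocampus (6.91 to 29.7 CPM). As 1 sample with 2 tissue labels, the pair was left out of the comparison of hippocampus with cortex and entered the other comparisons once. The ratios of single libraries at 1 h are apart from this and use each library of the pair by its label.

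The microglia genes were rare. Together they took between 0.00396% of all counts (hippocampus control 6 h library, 94 of 2370973; 95% Wilson interval 0.00324% to 0.00485%) and 0.00739% in the hippocampus conditioned 1 h library (283 of 3827831; 0.00658% to 0.00831%). The intervals cover counting error only, since PCR-amplified reads are not independent molecules. Summed over all libraries, a gene had between 30 counts (C1qa) and 479 (Csf1r), and this depth limits every comparison below. Border macrophage markers (7 genes, among them Mrc1 and Cd163) summed to 3.54 to 7.68 CPM and blood leukocyte markers (9 genes, among them Ccr2 and S100a8) to 0 to 0.776 CPM, beside 44.2 to 68.6 CPM for the microglia genes. Between 0 and 3 of the border macrophage markers and between 5 and 9 of the leukocyte markers had 0 counts in a library.

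Levels between genes can be compared only per length. Per kilobase of transcript, C1qb was the highest at 6.94 ± 2.55 CPM (SD, n = 7), followed by C1qc at 4.65 ± 1.68, P2ry12 at 4.09 ± 1.85 and Csf1r at 3.70 ± 0.931. Ctss at 3.04 ± 1.68, Tyrobp at 3.02 ± 2.87 and Laptm5 at 2.95 ± 1.20 came next, and neighbours in the order from C1qc to Laptm5 differed by less than the SD of either, while C1qb exceeded C1qc by more than the SD of C1qc but less than its own. Cx3cr1 was lower, at 1.39 ± 0.346, and C1qa was the lowest, at 0.657 ± 0.735. The 3 C1q chains, which the protein complex holds in equal number, thus spread over the whole range of levels.

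**Figure D1:**
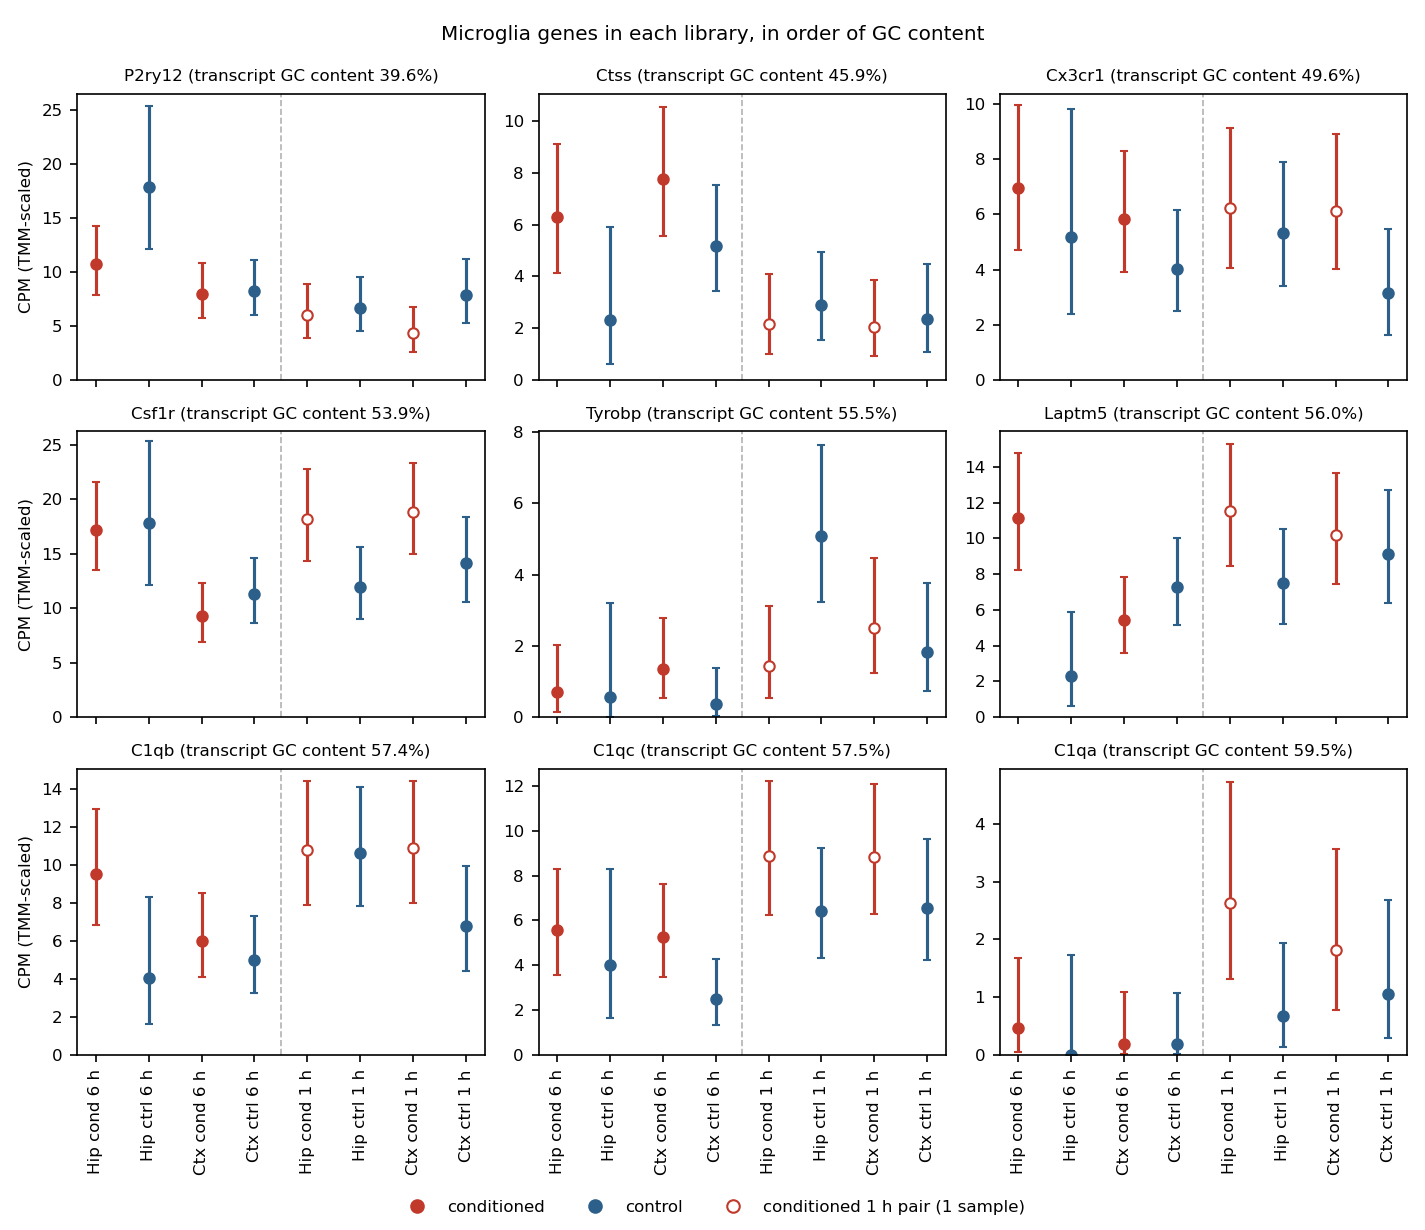
CPM (TMM-scaled, y axis) of the 9 microglia genes in each of the 8 libraries (x axis; Hip, hippocampus; Ctx, cortex; cond, conditioned; ctrl, control), with exact 95% Poisson intervals of the count (for a count of 0, the bar ends at 3 counts). Open circles are the conditioned 1 h pair that counts as 1 sample, the dashed line parts the times, and panels run from the lowest GC content (P2ry12, 39.6%) to the highest (C1qa, 59.5%).

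C1qb, C1qc and C1qa lie side by side on chromosome 4, on the same strand, between Ephb2 and Epha8. At 6 h, C1qc stood at 5.58 CPM (conditioned) and 4.03 CPM (control) in hippocampus and at 5.24 CPM (conditioned) and 2.50 CPM (control) in cortex, against 8.87 CPM (conditioned) and 6.42 CPM (control) in hippocampus and 8.84 CPM (conditioned) and 6.54 CPM (control) in cortex at 1 h. Every 6 h library was below every 1 h library. C1qc fell by 0.91 on the log2 scale at 6 h relative to 1 h (SE 0.32, adjusted p = 0.0478, edgeR quasi-likelihood test over all rows), the only one of the 7 microglia genes with enough counts for the test that was called. Over all rows tested, 37.7% were called at these times.

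C1qb averaged 6.14 ± 2.40 CPM at 6 h (SD, n = 4) and 9.42 ± 2.27 CPM at 1 h (n = 3). Its libraries overlapped between the times, because the hippocampus conditioned 6 h library held 9.53 CPM and the cortex control 1 h library 6.80 CPM, and its log2 change of -0.69 (SE 0.31) did not pass (adjusted p = 0.103 in edgeR). C1qa had 2 counts (conditioned) and 0 (control) in hippocampus at 6 h and 1 count each in the cortex libraries at 6 h, against 11 (conditioned) and 3 (control) in hippocampus and 8 (conditioned) and 4 (control) in cortex at 1 h. The 0 allows a level of up to 1.73 CPM (3 counts) in that shallow library. The low-count filter removed C1qa, and without the filter its log2 change at 6 h was -2.64 (SE 0.74, edgeR adjusted p = 0.0187).

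The promoters of C1qb and C1qc, the neighbours with lower values at 6 h, are printed with that of P2ry12, which had higher ones. Only C1qc among them was called. They run from 250 bases before to 50 bases after the gene start (RefSeq, GRCm38.p6; the counts were made on mm9, and no coordinates were converted), and 6 of the 9 genes had a printable entry. Capitals mark matches to GAGGAA (or TTCCTC on the other strand), the core bound by the myeloid factor PU.1 (Spi1), and to GGAAGT (or ACTTCC), a core of the wider ETS family. C1qb is at chr4:136886151-136886450, C1qc at chr4:136892865-136893164 and P2ry12 at chr3:59262936-59263235, all on the minus strand.
C1qb: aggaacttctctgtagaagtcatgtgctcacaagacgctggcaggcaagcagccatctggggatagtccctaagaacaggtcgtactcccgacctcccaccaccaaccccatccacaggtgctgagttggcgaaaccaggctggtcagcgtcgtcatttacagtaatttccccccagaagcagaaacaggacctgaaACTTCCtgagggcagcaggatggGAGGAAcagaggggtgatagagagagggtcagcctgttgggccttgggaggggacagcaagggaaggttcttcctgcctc
C1qc: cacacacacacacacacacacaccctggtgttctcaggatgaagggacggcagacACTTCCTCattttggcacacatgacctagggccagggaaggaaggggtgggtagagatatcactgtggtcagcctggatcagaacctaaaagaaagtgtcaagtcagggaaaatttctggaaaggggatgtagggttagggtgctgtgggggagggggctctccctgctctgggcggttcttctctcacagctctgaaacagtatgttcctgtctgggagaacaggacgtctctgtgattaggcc
P2ry12: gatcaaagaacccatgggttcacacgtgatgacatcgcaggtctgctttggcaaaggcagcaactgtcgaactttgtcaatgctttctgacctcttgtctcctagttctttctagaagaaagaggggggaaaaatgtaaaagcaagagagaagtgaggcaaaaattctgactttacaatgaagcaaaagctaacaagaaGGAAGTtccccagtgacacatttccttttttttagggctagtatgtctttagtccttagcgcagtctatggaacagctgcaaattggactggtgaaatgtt
C1qb carried both motifs, 30 and 53 bases before its start. In C1qc they overlapped, 193 and 195 bases before the start, and P2ry12 held the ETS core alone, 51 bases before the start. Over the 6 promoters, 4 held GAGGAA in either orientation (Ctss, Laptm5, C1qb and C1qc) and 5 held GGAAGT (the same genes and P2ry12), against 28.3% and 23.8% of 32851 promoters of the same length. Ctss and Laptm5, whose promoters are not printed, held both motifs and had log2 changes at 6 h of 1.10 and -0.53. A match describes the letters and is not a site of binding, and any link of the motifs to the levels was not tested. Spi1 itself stood at 1.86 CPM (conditioned) and 0 CPM (control, allowing up to 1.73 CPM) in hippocampus at 6 h. In cortex at 6 h it was at 2.52 CPM (conditioned) and 1.54 CPM (control), against a mean of 3.04 ± 0.920 CPM at 1 h (SD, n = 3). Its log2 change of -1.12 (SE 0.48) did not pass (edgeR adjusted p = 0.0886). With offsets for GC content and length in the fit it was -0.22 (edgeR adjusted p = 0.778).

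P2ry12, the nucleotide receptor, stood at 10.7 CPM (conditioned) and 17.8 CPM (control) in hippocampus and at 7.95 CPM (conditioned) and 8.26 CPM (control) in cortex at 6 h, against 5.99 CPM (conditioned) and 6.64 CPM (control) in hippocampus and 4.31 CPM (conditioned) and 7.84 CPM (control) in cortex at 1 h. The times did not overlap, with every 6 h library above every 1 h library, and the log2 change was 0.76 (SE 0.33, edgeR adjusted p = 0.0881). P2ry12 lies inside Med12l, a gene on the opposite strand with which it shares no exon. Med12l, a Mediator subunit gene, moved the same way. Its level was 93.2 CPM in the hippocampus control 6 h library, 52.8 to 54.4 CPM in the other 6 h libraries and 35.3 to 42.7 CPM at 1 h. Med12l rose by 0.72 on the log2 scale at 6 h (SE 0.25, edgeR adjusted p = 0.0440). With offsets for GC content and length in the fit, its log2 change was 0.07 (edgeR adjusted p = 0.837). The sources used here do not say whether the counting used strand, so reads of these genes that fall outside annotated exons cannot be told apart, and the part of Med12l in the P2ry12 values was not tested.

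Cx3cr1, the fractalkine receptor, showed little difference between the times, with 5.50 ± 1.23 CPM at 6 h (SD, n = 4) and 4.88 ± 1.57 CPM at 1 h (n = 3). Csf1r, on chromosome 18, likewise had 13.9 ± 4.25 CPM at 6 h and 14.9 ± 3.34 CPM at 1 h. Their log2 changes were 0.08 (SE 0.31, edgeR adjusted p = 0.852) and -0.19 (SE 0.31, edgeR adjusted p = 0.631), differences within the spread of each group.

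Tyrobp was found at 3 counts (conditioned) and 1 (control) in hippocampus and at 7 (conditioned) and 2 (control) in cortex at 6 h, against 6 (conditioned) and 23 (control) in hippocampus and 11 (conditioned) and 7 (control) in cortex at 1 h. In CPM, with the pair averaged, the times did not overlap, but the gap rests on few reads, and the hippocampus control 1 h library, at 5.09 CPM, was far above the rest. The filter removed Tyrobp, and without the filter its log2 change at 6 h was -1.70 (SE 0.60, edgeR adjusted p = 0.0489).

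The lysosomal genes pointed in opposite directions. Ctss, the cysteine protease cathepsin S, stood at 6.28 CPM (conditioned) and 2.3 CPM (control) in hippocampus and at 7.76 CPM (conditioned) and 5.18 CPM (control) in cortex at 6 h, against 2.16 CPM (conditioned) and 2.88 CPM (control) in hippocampus and 2.04 CPM (conditioned) and 2.35 CPM (control) in cortex at 1 h. All 6 h libraries but the hippocampus control lay above the 1 h libraries, and the log2 change of 1.10 (SE 0.42) did not pass (edgeR adjusted p = 0.0613). Without the hippocampus control 6 h library it was 1.37, with an edgeR adjusted p of 0.0162. Ctss also passed in limma-voom (1.17, adjusted p = 0.0451), where it was the only microglia gene called. With all 8 libraries as labelled, which enters the conditioned 1 h pair as separate samples, it passed too (1.20, edgeR adjusted p = 0.0366). These were the 3 of 19 settings in which Ctss passed. Without the pair its log2 change was 0.53 (edgeR adjusted p = 0.544), and without hippocampus conditioned 6 h 0.98 (edgeR adjusted p = 0.129). Laptm5, a lysosomal membrane protein of blood-derived and microglial cells, stood at 11.2 CPM (conditioned) and 2.3 CPM (control) in hippocampus and 5.43 CPM (conditioned) and 7.30 CPM (control) in cortex at 6 h, against 9.18 ± 1.66 CPM at 1 h (SD, n = 3), and its log2 change of -0.53 (SE 0.40) did not pass (edgeR adjusted p = 0.300).

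These changes have to be read against the rest of the libraries, in which 6 h and 1 h differed widely: 6167 of 16378 rows (37.7%) were called, 17.2% lower and 20.5% higher at 6 h. A share of 1 in 7 microglia genes called is not above that background. Of all 9, C1qc, C1qa, Tyrobp (lower at 6 h) and P2ry12 (higher) had ranges that did not overlap between the times, beside 43.7% of the genes with at least 30 counts. The microglia genes had a median log2 change of -0.19 over the 7 tested, beside -0.06 over 11977 tested genes.

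The changes lined up with base composition. Across 11886 genes, the rank correlation of transcript GC content with the log2 change at 6 h was -0.776, a description over genes that share the same libraries. Genes under 40% GC had a median log2 change of 1.34 and genes of 55% to 60% GC one of -0.92. P2ry12, at 39.6%, was the lowest of the microglia genes in GC content and lay on the higher side at 6 h. C1qb (57.4%), C1qc (57.5%), C1qa (59.5%), Laptm5 (56.0%) and Tyrobp (55.5%) were in the GC range that was lower at 6 h. Cx3cr1 (49.6%) and Csf1r (53.9%), near the median of 50.4%, differed least. Ctss, at 45.9%, lay above the interquartile range of its GC range (-0.08 to 0.76).

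With offsets for GC content and length in the fit, 0 of 7 microglia genes were called, beside 1725 of 15896 rows. The log2 change of C1qc became 0.13 (SE 0.36, edgeR adjusted p = 0.842), that of C1qb 0.40 (SE 0.27), that of P2ry12 -0.32 (SE 0.31) and that of Laptm5 0.14 (SE 0.31), each opposite in sign to the value without offsets, and that of Ctss 0.86 (SE 0.38, edgeR adjusted p = 0.158). C1qc was also not called in DESeq2 (adjusted p = 0.0990), limma-voom (adjusted p = 0.0546) or without the low-count filter (edgeR adjusted p = 0.0614). It was kept only when the hippocampus control 6 h library was left out, and not when any other single library was, with edgeR adjusted p of 0.0311 to 0.240 over these.

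**Figure D2:**
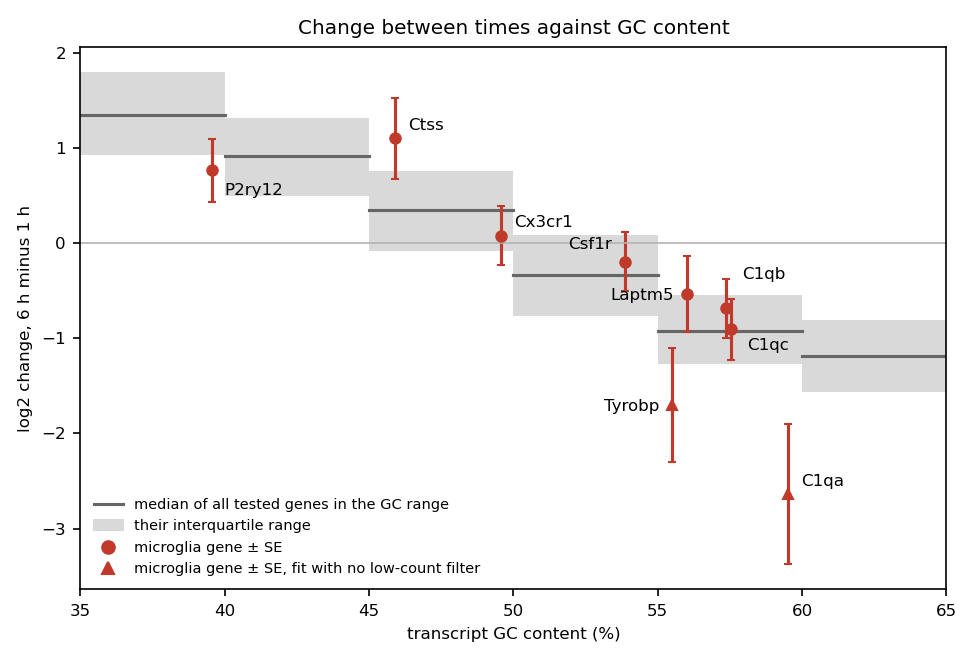
Log2 change at 6 h relative to 1 h (y axis) against transcript GC content in percent (x axis). Grey lines and bands give the median and interquartile range of all tested genes in 6 GC ranges, drawn out to 35% and 65% at the ends, and red points the microglia genes with their SE (triangles, fit with no low-count filter). C1qa lies more than 1 SE below the band of its GC range; the other genes lie in their band or within 1 SE of it, the points of Ctss and, barely, Laptm5 above it and those of Tyrobp and P2ry12 below it.

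Among the ligands of these receptors, Cx3cl1 fell by 1.02 on the log2 scale at 6 h (SE 0.32, edgeR adjusted p = 0.0322), with 238 ± 101 CPM at 6 h (SD, n = 4) and 437 ± 136 CPM at 1 h (n = 3). Il34 fell by 1.41 (SE 0.38, edgeR adjusted p = 0.0188), with 6.89 ± 3.5 CPM at 6 h and 18.0 ± 2.05 CPM at 1 h. With GC and length offsets neither passed, at -0.25 for Cx3cl1 (edgeR adjusted p = 0.442) and -0.52 for Il34 (edgeR adjusted p = 0.230). Csf1, the other ligand of CSF1R, was at 11.3 ± 3.44 CPM at 6 h and 11.7 ± 2.23 CPM at 1 h, and Tgfb1, which sustains microglial identity, was removed by the filter, at 0 to 0.576 CPM at 6 h and 0.443 to 1.44 CPM at 1 h.

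Of 16 further genes of microglial identity, 11 were tested at 6 h against 1 h, and 2 fell and 1 rose. Of all rows, 17.2% fell and 20.5% rose. Tmem119, a microglial surface protein, fell by 1.12 on the log2 scale (SE 0.37, edgeR adjusted p = 0.0375), with 2.76 ± 1.11 CPM at 6 h (SD, n = 4) and 6.11 ± 0.395 CPM at 1 h (n = 3). Selplg, a selectin ligand, fell by 1.59 (SE 0.54, edgeR adjusted p = 0.0405), and Cd33, a sialic acid receptor, rose by 1.20 (SE 0.42, edgeR adjusted p = 0.0475). With GC and length offsets, Tmem119 was at -0.18, Selplg at -0.62 and Cd33 at 1.16, and none passed (edgeR adjusted p of 0.744, 0.411 and 0.0845). Aif1 (0.27) and Itgam (0.97) gave log2 changes that did not pass, and Trem2, the TYROBP partner, was removed by the filter, at 0 to 1.15 CPM at 6 h and 1.13 to 2.35 CPM at 1 h. The median of the list was -0.21, beside -0.06 over all genes tested.

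Of 19 lysosomal proteins and cathepsins, 16 were tested and 6 fell at 6 h: Hexa, Cst3, Grn, Cd63, Laptm4b and Npc2, by 0.96 (Laptm4b) to 1.79 (Hexa) on the log2 scale. None rose, beside 17.2% of all rows that fell and 20.5% that rose. The median of the list was -0.68, beside -0.06 over all genes tested. These genes are not particular to microglia: the list summed to 502 to 1219 CPM, far above the microglia genes. With GC and length offsets, Cd63, a tetraspanin of late endosomes, fell by 1.76 (edgeR adjusted p = 0.0312), Hexa, a hexosaminidase subunit, by 1.12 (edgeR adjusted p = 0.0422) and Laptm4b, a relative of Laptm5, by 0.89 (edgeR adjusted p = 0.0324), while Cst3, Grn and Npc2 did not pass. Over all rows, 596 of 15896 fell in that fit. Only genes of the list that fell without offsets are given with them.

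Between hippocampus and cortex, 600 of 16123 rows were called (3.72%) and 0 of the 7 microglia genes tested, with 0 at an unadjusted p under 0.05 and 0 called by DESeq2 or limma-voom. Log2 changes ran from -0.35 (Ctss, SE 0.48) to 0.44 (Cx3cr1, SE 0.45), and edgeR adjusted p from 0.732 to 0.959. Their median was 0.40, with 5 of 7 above 0, beside a median of 0.00 and 50.1% above 0 over all rows. With SEs of 0.40 to 0.48 and 3 libraries a side, a difference of the size of these estimates was not detectable.

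Csf1r averaged 15.7 ± 3.23 CPM in hippocampus and 11.6 ± 2.42 CPM in cortex (SD, n = 3 each), and Cx3cr1 5.82 ± 0.999 CPM in hippocampus and 4.33 ± 1.36 CPM in cortex. P2ry12 averaged 11.7 ± 5.67 CPM in hippocampus and 8.02 ± 0.215 CPM in cortex. Its hippocampus libraries were at 17.8 CPM (control 6 h), 10.7 CPM (conditioned 6 h) and 6.64 CPM (control 1 h). The ranges of the tissues overlapped for all 9 genes, beside 13.4% of genes with at least 30 counts whose ranges did not. Tgfb2, a growth factor of the TGF-beta family that was listed with the ligands, was higher in hippocampus by 3.77 on the log2 scale (SE 0.42, edgeR adjusted p = 8.86e-06).

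**Figure D3:**
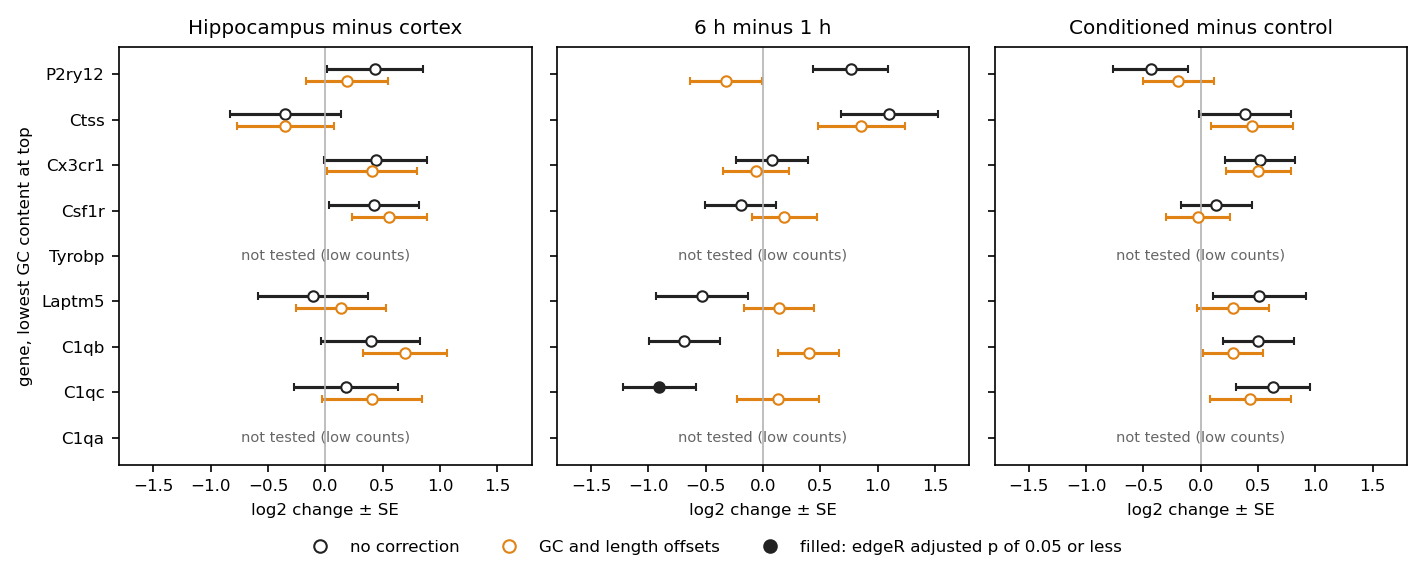
Log2 change ± SE (x axis) of the 7 tested microglia genes in hippocampus minus cortex (6 libraries), 6 h minus 1 h and conditioned minus control (7 libraries each), without correction in black and with GC content and length offsets in orange. The filled point, C1qc at 6 h without correction, is the only one that passed.

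For conditioned against control, 0 of 16378 rows were called (0.0%) and 0 of 7 microglia genes. Of these rows, 296 had an unadjusted p under 0.05 in edgeR, 267 in DESeq2 and 327 in limma-voom, and no tool called a row. The microglia genes ran from -0.44 (P2ry12, SE 0.33) to 0.63 (C1qc, SE 0.32), all with an edgeR adjusted p of 0.943 to 0.963. Their log2 changes were above 0 in 6 of 7, with a median of 0.50. Of all genes tested, 6096 of 11977 were above 0, with a median of 0.01. With GC and length offsets the microglia median was 0.28, with 5 of 7 above 0. Leaving out the hippocampus control 6 h library gave a median of 0.25 over 8 microglia genes. Leaving out any other library gave 0.27 to 0.59.

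Cx3cr1 alone had ranges that did not overlap between conditioned and control, beside 1.08% of genes with at least 30 counts. It averaged 6.32 ± 0.592 CPM in conditioned libraries (SD, n = 3) and 4.42 ± 1.03 CPM in control libraries (n = 4), and its log2 change was 0.52 (SE 0.31, edgeR adjusted p = 0.943). C1qc averaged 6.56 ± 2.0 CPM in conditioned and 4.87 ± 1.96 CPM in control libraries, and C1qb 8.79 ± 2.49 CPM in conditioned and 6.61 ± 2.91 CPM in control libraries. The differences of C1qc and C1qb are smaller than the SD of either group, and that of Cx3cr1 is larger.

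Within a tissue and time there was 1 conditioned and 1 control library, so ratios are given with exact 95% intervals that cover counting error only, with no test and no adjustment for their number. Of 35 ratios, 7 had an interval that did not include 1. The same pairs of libraries differed widely in the chi-square comparison over genes, which also covers counting error only. After adjustment, 5754 of 10408 genes differed in hippocampus at 6 h and 1522 of 11563 in cortex at 6 h. At 1 h, 3321 of 11413 genes differed in hippocampus and 1559 of 11201 in cortex. Whether the microglia genes exceeded this background was not tested. In hippocampus at 6 h, Laptm5 had 48 counts (conditioned) and 4 (control), a ratio of 4.85 (1.77 to 18.5). C1qb had 41 counts (conditioned) and 7 (control) there, a ratio of 2.37 (1.05 to 6.25), and P2ry12 had 46 (conditioned) and 31 (control), a ratio of 0.599 (0.372 to 0.978), the only interval at 6 h that lay below 1. The same pair of libraries differed with GC content over 11886 genes, with a rank correlation of 0.616. A trend fitted over genes on GC content and length predicted a ratio of 2.37 for C1qb, 0.593 for P2ry12 and 1.84 for Laptm5. Divided by these, C1qb was at 0.999 (0.444 to 2.64), P2ry12 at 1.01 (0.628 to 1.65) and Laptm5 at 2.63 (0.963 to 10.0). Ctss, at 27 counts (conditioned) and 4 (control), had a ratio of 2.73 (0.95 to 10.7), and 2.97 (1.03 to 11.7) once divided by its predicted ratio. The divided intervals still cover counting error only, and leave out the error of the trend and the scatter of genes around it.

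In cortex at 6 h, where the rank correlation with GC content was -0.080, C1qc had 27 counts (conditioned) and 13 (control), a ratio of 2.10 (1.05 to 4.43), unchanged to 3 digits by the same step. No other interval there left out 1: Cx3cr1 was at 1.44 (0.799 to 2.65), Ctss at 1.5 (0.896 to 2.54) and Laptm5 at 0.744 (0.440 to 1.24). At 1 h the conditioned libraries are the pair counted as 1 sample elsewhere, and each is used here by its tissue label. The tissue of the pair is unresolved, so in the ratios at 1 h training cannot be told apart from tissue. Set against the hippocampus control 1 h library, the one labelled hippocampus gave ratios of 1.52 for Csf1r (1.06 to 2.20), 3.97 for C1qa (1.05 to 22.2, from 11 conditioned and 3 control counts) and 0.282 for Tyrobp (0.0940 to 0.713). In cortex at 1 h all 9 intervals included 1, from 0.549 for P2ry12 to 1.95 for Cx3cr1.

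**Figure D4:**
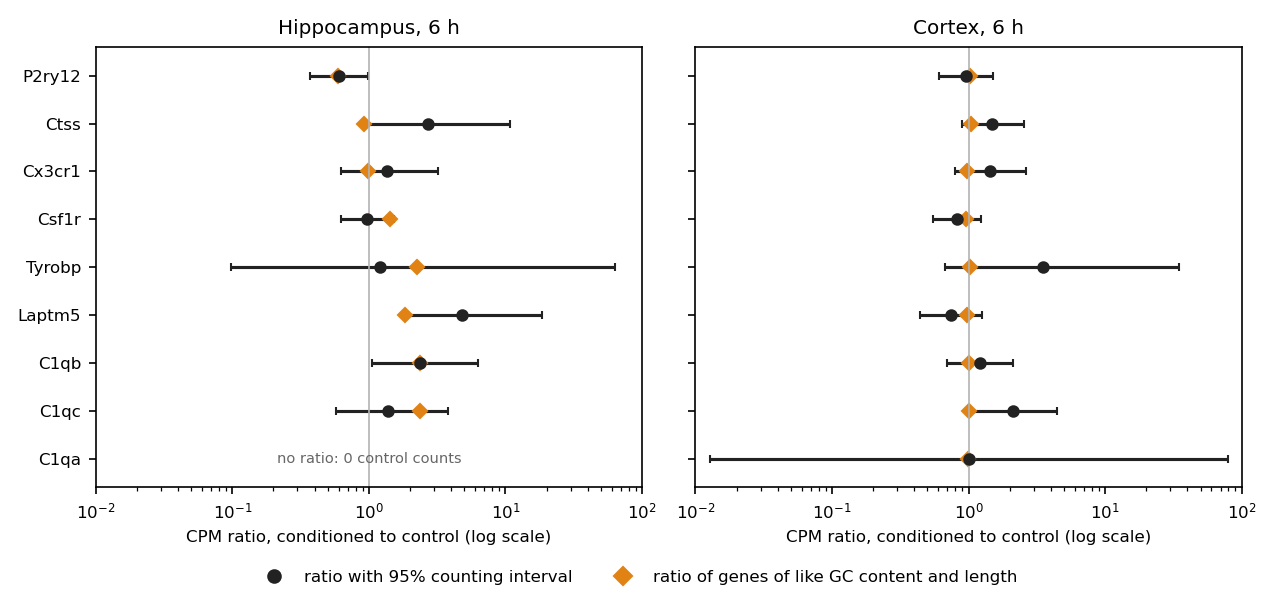
Ratio of conditioned to control CPM at 6 h (x axis, log scale) for the microglia genes in hippocampus and cortex, 1 library each, with exact 95% counting intervals (black). Orange diamonds are the ratio that a trend fitted over genes predicts for the GC content and length of each gene. They lie near 1 in cortex and run from 0.593 (P2ry12) to 2.37 (C1qb) in hippocampus.

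The mean centred log2 CPM of the 9 genes was highest in the conditioned 1 h pair (0.34) and the hippocampus conditioned 6 h library (0.24) and lowest in the hippocampus control 6 h (-0.39) and cortex control 6 h (-0.36) libraries. Among 10562 genes, those whose pattern over the 7 libraries lay closest to this mean were Soat1 (root mean square difference 0.0750 on the log2 scale), Hapln4, Lin37, Lrpap1, Maged2, Prdx3, Eral1 and Tmem185a (0.103), and none is on any of the gene lists used here. The microglia genes were themselves farther from their mean, from 0.230 (C1qb) to 0.724 (Ctss), so the mean pattern described no single one of them closely.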

How the data were processed

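The authors deposited 1 table of raw read counts per RefSeq transcript, not normalized, with 28157 rows. The mouse build mm9 is named in the submitters' processing notes, as are TopHat 1.3.1, CASAVA 1.7, limma 3.12.3 and edgeR 2.612, without their roles. The counting program and how it treated strand and shared reads are not given. Ribosomal RNA was depleted and cDNA was amplified by SPIA and PCR, per the labels' protocols.

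Of the identifiers, 98.1% matched a symbol. GC content, length and gene neighbours came from GRCm38 transcripts and annotation, promoters from RefSeq (GRCm38.p6). Counts were tested in R 4.3.3 with edgeR 4.0.16 (robust quasi-likelihood test, TMM factors, default low-count filter, Benjamini-Hochberg over all rows at 0.05). Hippocampus against cortex used 6 libraries with the training and time combination as a block. The other comparisons used 7 libraries with the conditioned 1 h pair summed (tissue coded 0.5) and tissue, training and time as additive terms. Group means use TMM-scaled CPM with the pair averaged. DESeq2 1.42.0, limma 3.58.1 (voom), other scalings, no filter, GC and length offsets, and leaving out libraries were alternatives. The members and gene lists were chosen with earlier results of these data known. All 9 members were named; of other lists, genes that passed (at most 6 a direction) and ligand and identity genes chosen with the lists. The fits were tested on simulated data. Symbols Cd68 and Hbb-b1 were not used here, and some results of the listed genes are not reported here.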

Additional observations from a re-analysis of the deposited data

Results flagged for a closer look

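P2ry12 in the hippocampus control 6 h library, at 17.8 CPM, lay far from the other control libraries, which held 6.64 to 8.26 CPM. The gap to the nearest of them was 0.856 of the range of the 4 control libraries. In all, 18 such groups were checked, and chance alone marks about 1 in 20. Med12l, the gene on the opposite strand around P2ry12, was at 93.2 CPM in the same library and at 35.3 to 52.8 CPM in the other control libraries. The cause was not tested.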

How the results depend on the processing

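The count of rows called between hippocampus and cortex was 921 with no low-count filter, 1008 with GC and length offsets, 0 with all 8 libraries as labelled, and 200 to 874 leaving out a library. For 6 h against 1 h it was 1725 with offsets, 3745 without the conditioned 1 h pair, and 0 to 7327 leaving out a library, 0 without cortex control 1 h and 1830 without hippocampus control 1 h. Microglia genes called there were 0 of 7 in DESeq2 (beside 6072 of 16378 rows) and 2 of 9 without the filter (5949 of 22154 rows). They were 0 of 7 with offsets (1725 of 15896 rows) and 3 of 8 with 8 libraries (7280 of 16304 rows). Without the pair they were 0 of 7 (3745 of 16123 rows), and leaving out a library gave 0 to 2. With GC and length offsets, log2 changes turned sign for Laptm5 between tissues (0.14), for Cx3cr1 (-0.061), Csf1r (0.19), C1qb (0.40), C1qc (0.13), P2ry12 (-0.32), Laptm5 (0.14) and Csf1 (0.32) between times, and for Csf1r with training (-0.024). Without the pair, Csf1r (0.076), Csf1 (0.063) and Aif1 (-0.012) turned between times and Csf1r (-0.14) with training. Upper-quartile factors, which moved the median of all rows at 6 h to -0.15, from -0.03, turned Cx3cr1 (-0.032). Leaving out a library gave, between tissues, C1qc -0.00092 to 0.33, Tyrobp -0.52 to 1.25 and Laptm5 -0.81 to 0.37; between times, Cx3cr1 -0.015 to 0.16, Csf1r -0.50 to 0.0060 and Aif1 -0.084 to 0.68; with training, Csf1r -0.11 to 0.37 and Tyrobp -0.32 to 0.13. The conditioned to control ratios of C1qb (0.999) and P2ry12 (1.01) in hippocampus at 6 h crossed 1 once the GC and length trend was removed, an alternative chosen after seeing the data. The cause was not tested. Counted as 1 value per microglia gene and alternative setting, direction and side of the threshold were kept in 113 of 118 values between tissues, 104 of 130 between times and 126 of 130 with training. Between tissues and with training no setting called a microglia gene, so those counts reflect direction only. Each microglia gene has 1 row, so the setting that summed the rows of a gene, counted here, could not differ. Depth, at 0 to 83 counts per microglia gene and library, limits all of these.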

Other observations

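Other pathways in which microglia take part were also counted at 6 h against 1 h. Of 14 ITAM receptor and signalling genes 3 passed the low-count filter, and of 7 purinergic receptors and ectonucleotidases 4. Of 14 complement genes beyond C1q 6 passed it, and of 7 myeloid transcription factors 4. In each list 0 were called, beside 37.7% of all rows. Among 12 genes of activated microglia 5 were tested: Apoe, a lipid carrier that astrocytes also make, fell by 1.81 on the log2 scale (SE 0.38, edgeR adjusted p = 0.00959), and Lpl, lipoprotein lipase, rose by 1.39 (SE 0.38, edgeR adjusted p = 0.0194). With GC and length offsets Apoe was at -0.64 (edgeR adjusted p = 0.102) and Lpl at 0.53 (edgeR adjusted p = 0.250). Lpl was also higher in hippocampus than in cortex, by 1.92 (SE 0.41, edgeR adjusted p = 0.00634).

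Markers of other cell types are given beside the shares of all rows, 20.5% higher and 17.2% lower at 6 h. Of 8 astrocyte genes 2 rose and 2 fell at 6 h, of 8 oligodendrocyte genes 1 rose and 2 fell, of 7 neuronal genes 4 rose and 1 fell, and of 5 endothelial and mural genes tested 2 rose and 1 fell. The neuronal genes summed to 17724 to 29427 CPM at 6 h and 7954 to 10581 CPM at 1 h. This sum is mostly Snap25, with 493027 counts over all libraries against 3602 (Gad1) to 28253 (Syt1) for the others. The log2 changes of the neuronal genes ran from -1.13 (Slc17a7) to 1.60 (Snap25). Their part in the results for the microglia genes was not tested. For conditioned against control, 0 genes of any list were called.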
